A study of Mus musculus with 8 samples.

Results

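Transcripts of the mitochondrial respiratory chain and ATP synthase were compared between 2 sorted fractions of mouse tumour neutrophils. The genes were the protein-coding rows of the count table whose names begin with Nduf, Uqcr, Cox4 to Cox8, Atp5, mt-Nd, mt-Co, mt-Cytb or mt-Atp, or are Sdha, Sdhb, Sdhc or Sdhd. The rule found 107 genes of the 54532 in the table, 94 nuclear and 13 encoded in mitochondrial DNA. Of the nuclear genes, 85 were counted as subunits and 9 as assembly or coupling factors (Ndufaf1 to Ndufaf8 and Atp5s). A filter on low counts left 99 of the 107 for testing, among 14051 tested genes.

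Both fractions came from 2208L mammary tumours that had grown to 1 cm in the fat pad of the mammary gland in Balb/c mice. Neutrophils were sorted by flow cytometry into ICAM1high and ICAM1low cells, where ICAM1 (CD54) is an adhesion molecule that binds leukocyte integrins. Each fraction has 4 libraries that the labels call biological replicates, made from 100 ng of total RNA with an mRNA kit, and no cells were treated. Nothing says that each replicate came from its own mouse or how many mice were used, so p-values measure the spread between these samples.

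The respiratory chain passes electrons from NADH (complex I) and succinate (complex II) through ubiquinone to complex III, on to cytochrome c and complex IV, and so to oxygen. Complexes I, III and IV pump protons, and complex V, the ATP synthase, uses the proton gradient to make ATP. Mitochondrial DNA encodes a few core subunits of complexes I, III, IV and V, the nucleus encodes all others, and complex II is wholly nuclear. Neutrophils are known for few mitochondria and a reliance on glycolysis, macrophages for more mitochondria.

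Several mitochondrial genes have a copy in the nuclear genome, and this decides which of their counts can be read. The table holds rows on chromosome 1 for 7 genes with sequence shared with mitochondrial genes. Gm28661, Gm10925, Gm28437 and Gm10222 matched mt-Co2, mt-Atp6, mt-Co3 and mt-Nd4l at 681 of 681, 678 of 678, 783 of 783 and 294 of 294 bases in the GENCODE M21 transcripts. The pair below shows why reads could not be assigned: the first 60 bases of mt-Co3 (chrMT:8607-8666, plus strand, mm10) are also those of Gm28437 (chr1:24613912-24613971, minus strand).
mt-Co3: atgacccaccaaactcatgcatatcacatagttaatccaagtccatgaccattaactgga
Gm28437: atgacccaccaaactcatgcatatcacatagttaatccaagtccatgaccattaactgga
The next pair is mt-Nd3 (chrMT:9459-9499, plus strand) and Gm28438 (chr1:24613079-24613119, minus strand), which share 344 of 345 bases. The capital marks their sole difference, T3C, counted from the first base of each gene.
mt-Nd3: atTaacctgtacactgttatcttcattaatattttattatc
Gm28438: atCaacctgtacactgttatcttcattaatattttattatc

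Summed over the 8 libraries, the chromosome 1 rows held 40.69% of the counts of the mt-Co2 pair, 56.55% of the mt-Atp6 pair, 49.04% of the mt-Co3 pair, 66.53% of the mt-Nd4l pair and 83.9% of the mt-Nd3 pair. The levels of these 5 genes are therefore uncertain. For mt-Co1 the copy Gm29216 covers only bases 1063 to 1545, with 482 of 483 identical, and held 0.77% of the counts. For mt-Nd4 the copy Gm28439 matches the first 876 of 1378 bases and held 1.21%. How reads that match both places were counted is not known here. The levels of mt-Nd4 and mt-Co1, whose copies align to 63.6% and 31.3% of their length, therefore carry a limit too. The 7 rows were not matched to mt-Nd1, mt-Nd2, mt-Nd5, mt-Nd6 or mt-Cytb. Over single libraries the share of the copy ran from 38.45 to 44.12% for mt-Co2, 54.64 to 61.68% for mt-Atp6 and 43.57 to 50.66% for mt-Co3. It ran from 78.82 to 94.29% for mt-Nd3 and 44.12 to 81.82% for mt-Nd4l, which had few counts, and from 0.4 to 1.91% for mt-Co1 and 0.55 to 2.11% for mt-Nd4. Adding the counts of the copies to the mitochondrial genes changed no count of respiratory chain genes that passed the test. This sum holds only counted reads, so it cannot show the effect of any reads left out for matching both places.

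**Figure D1:**
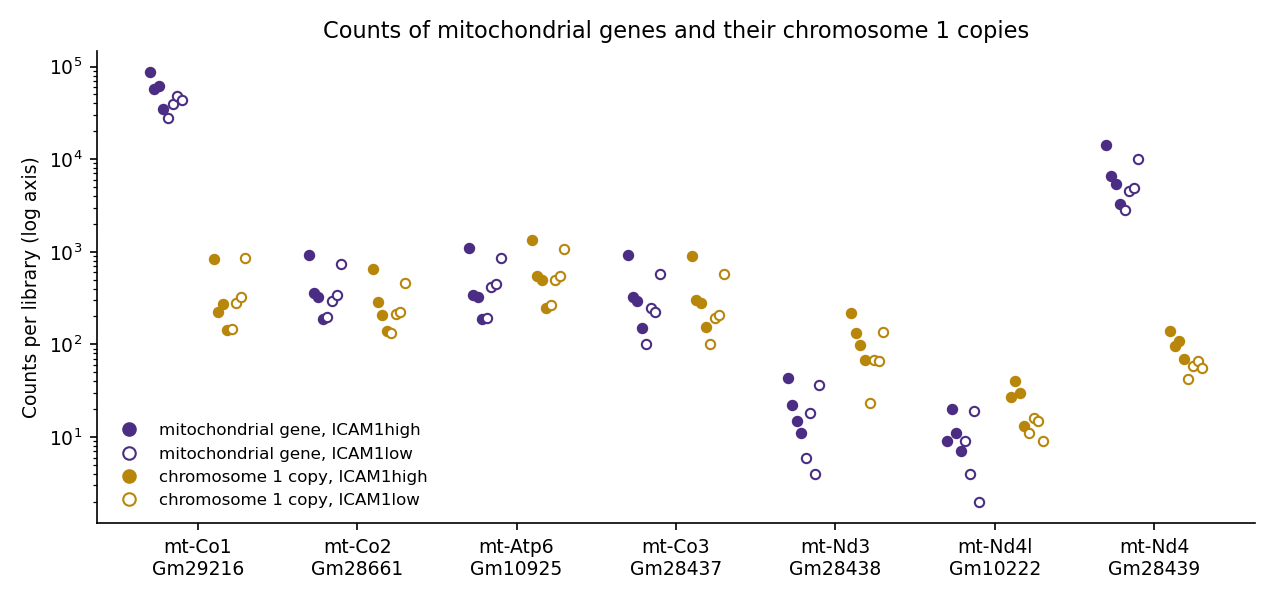
Counts per library (log axis) of 7 mitochondrial genes and of their chromosome 1 copies, with filled points for ICAM1high and open points for ICAM1low. The copies of mt-Co2, mt-Atp6 and mt-Co3 lie at the height of the mitochondrial gene, those of mt-Nd3 and mt-Nd4l mostly above it, and those of mt-Co1 and mt-Nd4 far below.

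Total counts ran from 10328575 to 22751975 per library. ICAM1high replicate 1 and ICAM1low replicate 4 stood apart from their fractions in these genes. Of the 78 tested nuclear subunit genes, 75 were highest in replicate 1 among the ICAM1high libraries, and 67 were highest in replicate 4 among the ICAM1low libraries. The median log2 difference from the other 3 libraries of the fraction was 0.89 and 1.03 for the nuclear subunits in these libraries, and 1.00 and 1.24 for the mitochondrial genes. Both libraries also held more of short transcripts in general: with all tested genes cut by deposited length into 10 classes, in the shortest (median 733 bases) the medians were 0.64 and 0.52, against -0.62 and -0.48 in the longest (median 11949 bases). Other libraries lay low. Among the ICAM1low libraries replicate 1 was lowest in 69 of the 78, with medians of -0.81 for nuclear subunits and -0.74 for mitochondrial genes. Its length classes ran from -0.42 in the shortest to 0.45 in the longest. Among the ICAM1high libraries replicate 4 was lowest in 61, with medians of -0.50 and -0.43. The tested nuclear subunit genes had a median length of 1631 bases, against 3990 for all tested genes. Whether the transcript length sets these deviations was not tested beyond the correction given below.

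**Figure D2:**
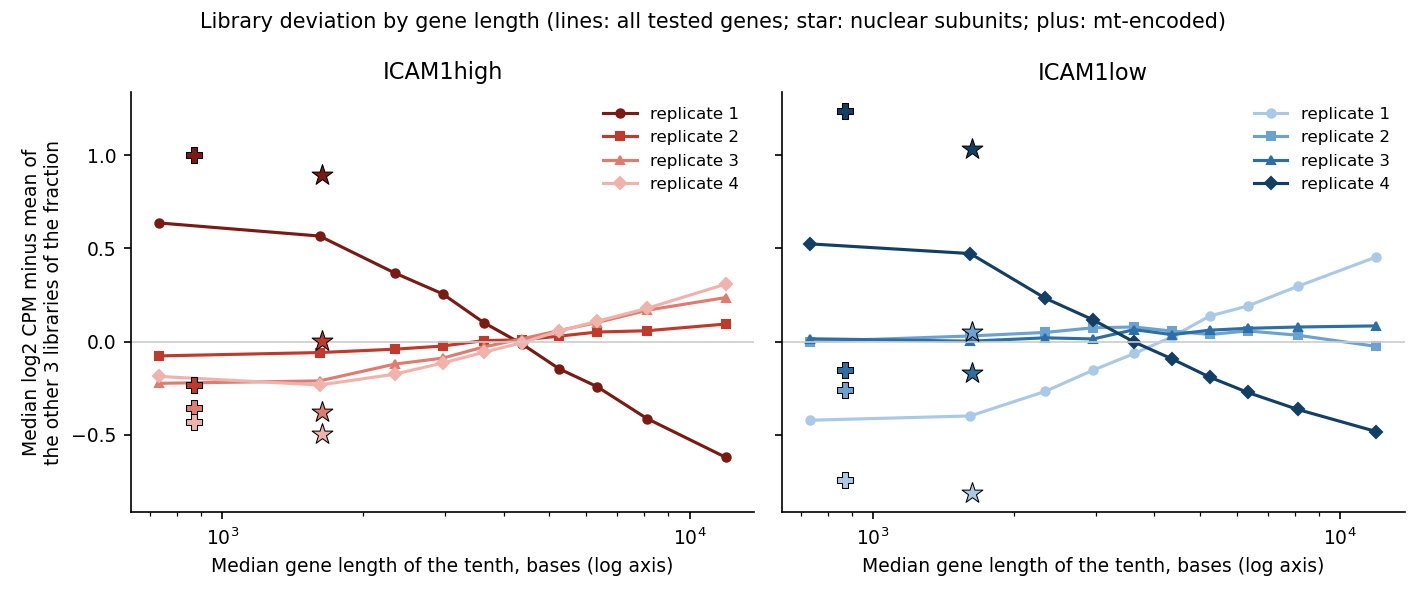
Median log2 CPM of each library minus the mean of the other 3 libraries of its fraction (vertical axis), for 10 classes of all tested genes by deposited gene length in bases (log axis, lines) and for nuclear subunits (stars) and mitochondrial genes (plus signs). ICAM1high replicate 1 and ICAM1low replicate 4 fall from left to right, and their stars and plus signs lie above their own lines.

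Markers of macrophages and of neutrophils differed between the fractions. Of 17 macrophage and monocyte markers, 16 were higher in ICAM1high, with a summed level of 10965 to 17967 CPM (counts per 1000000 of the library size after TMM scaling, which sets the bulk of genes level between libraries) against 1252 to 1890 CPM in ICAM1low. None of the 17 was at 0 in all libraries of either fraction. All 12 core neutrophil markers were lower, at 10151 to 13909 against 43054 to 84756 CPM, and were thus present in both fractions.  Of the other markers, 3 of 5 tested of tumour epithelium and 1 of 1 of T and NK cells were lower, 1 of 2 of B cells and 1 of 4 of endothelium and fibroblasts were higher, and none of the erythroid markers could be tested. Over all tested genes, 22.6% were higher and 19.6% lower by the test given below. The part of these differences in the results that follow was not tested. In bulk samples, fewer cells of a type and less RNA per cell cannot be told apart.

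The level of the chain as a whole depended on the scaling. As a share of all counts, mitochondrially encoded mRNAs made up 0.783, 0.564, 0.599 and 0.538% in ICAM1high replicates 1 to 4 and 0.261, 0.328, 0.334 and 0.391% in ICAM1low. Nuclear subunits made up 0.581, 0.446, 0.358 and 0.331% against 0.159, 0.262, 0.210 and 0.336%. The mitochondrial shares did not overlap between the fractions, and the nuclear ones did, by ICAM1low replicate 4. With library totals alone, however, the median over all tested genes was itself 0.76 on the log2 scale, ICAM1high over ICAM1low, against 0.08 after TMM, and the median of nuclear subunits was 0.95. After TMM the summed level of nuclear subunits was 4929, 3332, 2784 and 2609.8 CPM in ICAM1high and 1959.97, 3029.9, 2699 and 4772 CPM in ICAM1low, which overlapped, with a ratio of the means of 1.096. Mitochondrial mRNAs summed to 6647, 4219, 4657 and 4239 CPM against 3211, 3799, 4298 and 5554 CPM, with a ratio of 1.17.

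The balance of the 2 genomes did not differ between the fractions beyond its spread. Counts of nuclear subunits were 0.686 ± 0.0941 times those of mitochondrial mRNAs in ICAM1high and 0.724 ± 0.124 times in ICAM1low (SD, n = 4). The ratio does not depend on scaling. A single gene, mt-Co1, supplied 59.2 ± 4.52% of the mitochondrial mRNA counts in ICAM1high and 60.1 ± 7.2% in ICAM1low. The mitochondrial counts include the genes shared with chromosome 1, whose levels are uncertain. Both this share and the ratio of the genomes carry that limit.

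**Figure D3:**
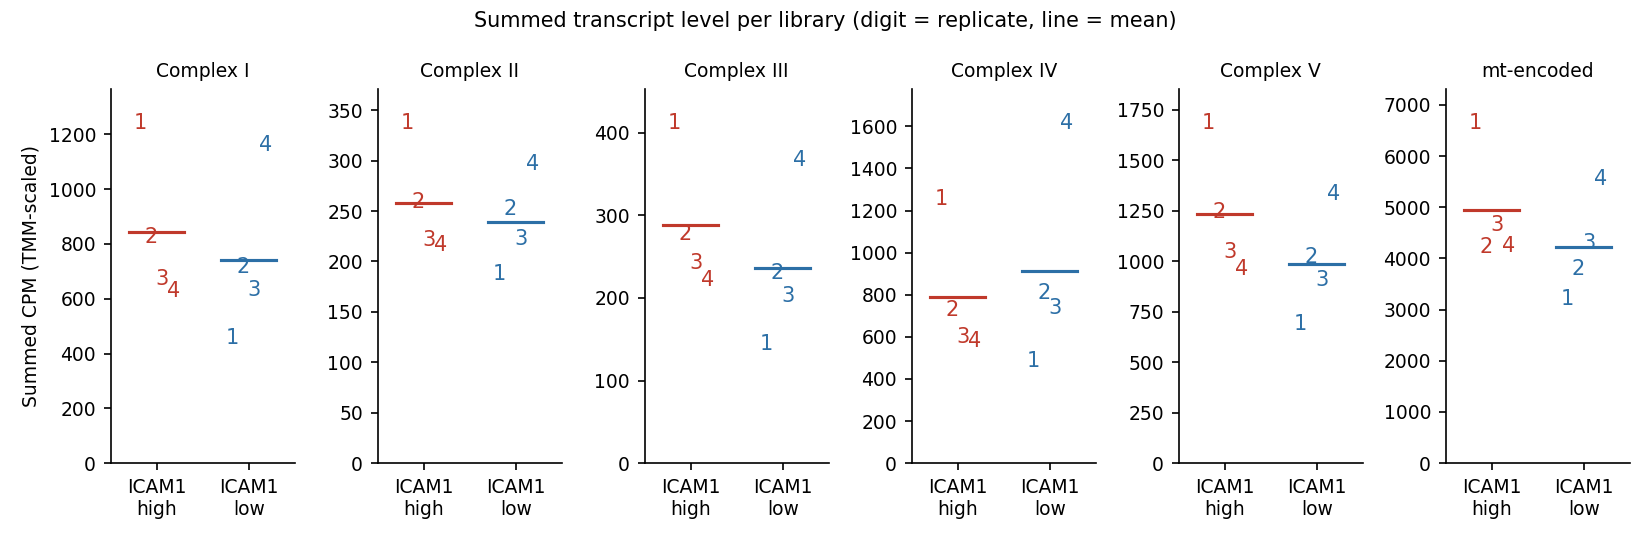
Summed CPM per library of the nuclear subunits of complexes I to V and of the mitochondrially encoded genes; digits are replicate numbers (ICAM1high red, ICAM1low blue) and lines are means. In each panel ICAM1high replicate 1 and ICAM1low replicate 4 are highest in their fraction, and the fractions overlap.

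Across all tested genes, 42.1% passed the test (edgeR's quasi-likelihood test, Benjamini-Hochberg adjusted p under 0.05), 22.6% higher and 19.6% lower in ICAM1high. Against this background few respiratory chain genes passed the test, which does not show that the others were unchanged. Of the 78 tested nuclear subunits 9 rose, 1 fell and 68 did not pass, so 12.8% were called. Of the 39 subunit genes longer than the median of 1631 bases, 8 rose and 0 fell, with a median standard error of 0.31. Of the 39 at or under it, 1 rose and 1 fell, with a median standard error of 0.36. The part of gene length in the calls was not tested. All 78 are counted in what follows. Their median log2 fold change was 0.24, against 0.08 for all tested genes, and 56 were positive. In 10 of 78 every ICAM1high library lay above every ICAM1low library, which was so for 23.4% of all tested genes, and in none did every library lie below (18% of all tested genes). Of the 12 tested mitochondrial genes 1 rose and none fell, with a median of 0.13. With edgeR and with limma-voom 1 of the 12 had an unadjusted p under the threshold, and DESeq2 also called 1.

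These counts moved with the libraries and the scaling. Scaling by library totals gave 48 nuclear subunits higher and 0 lower, and 6 mitochondrial genes higher, while 6818 of all tested genes were then higher and 839 lower. Without ICAM1low replicate 4, 20 nuclear subunits were higher and 1 lower, and 3 mitochondrial genes higher. Of all tested genes 3403 were then higher and 2884 lower. Without ICAM1high replicate 1 there were 7 and 3 (all tested genes 2970 and 2927), and the median turned to -0.03. Without both there were 13 and 3 (all tested genes 3586 and 3441). A correction for each library's trend with gene length gave 22 and 1 (all tested genes 3535 and 3228). Replicates 1 and 2 alone gave 19 higher, 0 lower and a median of 0.85 (all tested genes 1708 and 1416). Replicates 3 and 4 alone gave 1 higher, 3 lower and a median of -0.49 (all tested genes 1658 and 1604).

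**Figure D4:**
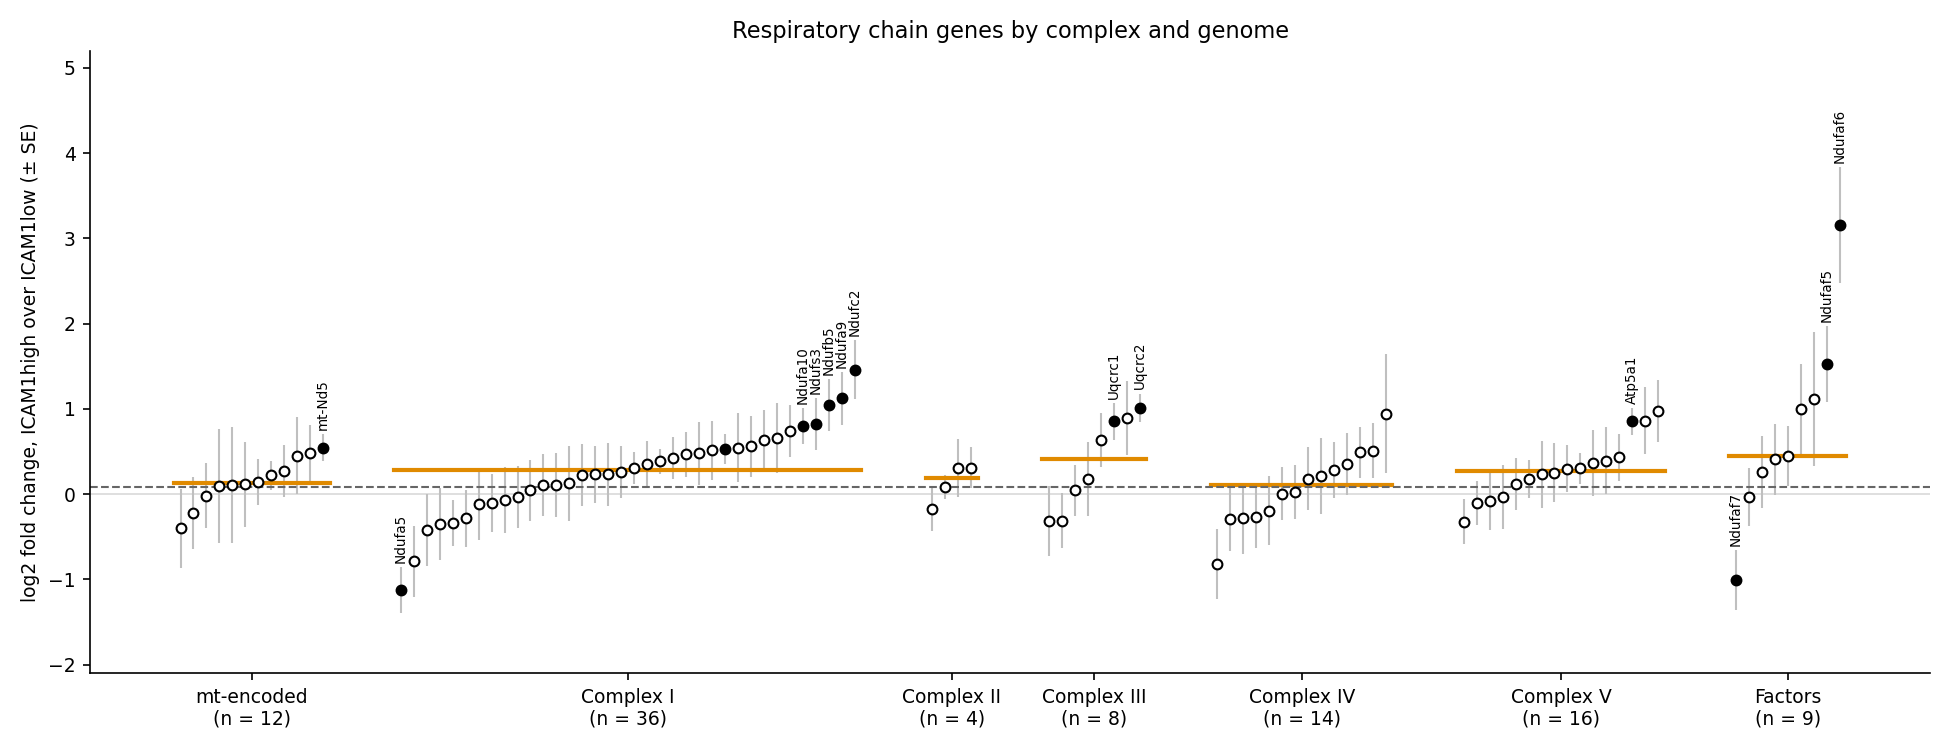
Log2 fold change, ICAM1high over ICAM1low, of the 99 tested genes with its standard error, ordered by size within each complex or group; filled points passed the test and most of them are named, orange lines are group medians and the dashed line is the median of all tested genes (0.08). Most points lie within 1 of zero, complex I holds the most filled points, and complexes II and IV hold none.

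Complex I takes electrons from NADH. Of its 36 nuclear subunits 6 rose and 1 fell, so 19.4% were called against 42.1% of all tested genes. Their log2 fold changes had a median of 0.28. The conserved core subunits carry the flavin and iron-sulfur clusters. Ndufs3, one of them (chromosome 2, 90894634 to 90904827, mm10), had 34.9, 25.3, 24.2 and 19.9 CPM in ICAM1high against 8.95, 14.1, 11.7 and 24.2 CPM in ICAM1low. ICAM1low replicate 4 lay level with ICAM1high replicate 3, so the fractions overlapped. The log2 fold change of 0.82 ± 0.30 (SE) was just past the threshold (adjusted p = 0.049), and of the 26 alternatives 14 called it. Each library left out, other than ICAM1low replicate 4, ended the call. Ndufs1, the largest core subunit, averaged 30.8 against 23.7 CPM, a log2 fold change of 0.38 ± 0.15 that did not pass (adjusted p = 0.058), although its ICAM1high libraries, at 27.9 to 32.5 CPM, all lay above the ICAM1low ones, at 20.5 to 26.1 CPM.

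Among the accessory subunits, which surround the core, Ndufc2 changed most. Ndufc2 (chromosome 7, 97400003 to 97407802) had 41.1, 24.3, 19.1 and 16.1 CPM in ICAM1high and 4.77, 10.2, 10.5 and 11.05 CPM in ICAM1low. All ICAM1high libraries were above all ICAM1low ones, and the log2 fold change was 1.46 ± 0.34 (adjusted p = 0.0066). Ndufa9, an accessory subunit of the matrix arm (chromosome 6, 126821721 to 126849136), had 28.4, 21.8, 16.99 and 13.6 CPM against 5.14, 8.68, 10.3 and 12.98 CPM, a log2 fold change of 1.123 ± 0.31 (adjusted p = 0.014). The lowest ICAM1high and the highest ICAM1low value nearly touched. Ndufb5, in the membrane arm, stood at 33.7, 18.01, 15.4 and 13.2 CPM against 7.19, 12.4, 10.2 and 9.11 CPM, a log2 fold change of 1.04 ± 0.31 (adjusted p = 0.020). Ndufa10, also of the membrane arm, stood at 31.8, 30.4, 24.4 and 23.6 CPM against 13.6, 20.9, 16.7 and 11.98 CPM, a log2 fold change of 0.80 ± 0.21 (adjusted p = 0.011). No library of one fraction reached the other for Ndufb5 or Ndufa10. None of these 4 kept its call in replicates 3 and 4 alone, where the log2 fold changes were 0.66 for Ndufc2, 0.35 for Ndufa9, 0.52 for Ndufb5 and 0.69 for Ndufa10.

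Ndufa5 was the only subunit of any complex that fell. This accessory subunit of the matrix arm (chromosome 6, 24518666 to 24528013) had 24.0, 15.9, 12.3 and 11.1 CPM in ICAM1high and 24.0, 37.7, 35.4 and 41.4 CPM in ICAM1low. Replicate 1 of both fractions had the same level, and the other 3 ICAM1high libraries lay below all ICAM1low ones. The log2 fold change was -1.13 ± 0.27 (adjusted p = 0.0070), and the call was lost in replicates 1 and 2 alone (-0.63) and under library totals (-0.45), 2 of 26 alternatives. The 29 nuclear subunits of complex I that did not pass ranged from -0.79 (Ndufb9) to 0.74 (Ndufv2).

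The complex I assembly factors, which build the enzyme without staying in it, included the largest log2 fold changes among the tested members. Ndufaf6 had 3.37, 1.58, 1.45 and 1.22 CPM in ICAM1high against 0.440, 0.0612, 0.288 and 0.0624 CPM in ICAM1low, a log2 fold change of 3.16 ± 0.68 (adjusted p = 0.0041). Its ICAM1low libraries held only a few counts each. Ndufaf5, which hydroxylates a core subunit during assembly, had 6.13, 3.36, 3.04 and 1.91 CPM against 0.807, 1.83, 1.55 and 0.811 CPM, a log2 fold change of 1.53 ± 0.45 (adjusted p = 0.019). The fractions did not overlap for either gene. Ndufaf6 passed in 24 of 25 alternatives (adjusted p up to 0.082) and Ndufaf5 in 21 of 25 (up to 0.27). Among the losses for Ndufaf5 was the fit without ICAM1high replicate 1 (log2 fold change 1.11, adjusted p = 0.065). Ndufaf7, an arginine methyltransferase of the mitochondrial matrix, fell, with 11.97, 9.67, 10.4 and 18.8 CPM against 17.2, 15.5, 24.8 and 44.1 CPM, a log2 fold change of -1.01 ± 0.35 (adjusted p = 0.039). Its fractions overlapped, and ICAM1low replicate 4 was far above the rest. Without that library the log2 fold change was -0.60 (adjusted p = 0.090), and the call was also lost without ICAM1high replicate 1, 2 or 3 or ICAM1low replicate 3. Of the 9 factors 2 rose and 1 fell, so 33.3% were called against 42.1% of all tested genes. The 6 that did not pass included Ndufaf8 at 0.99 ± 0.53 (adjusted p = 0.15).

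The 7 mitochondrial subunits of complex I form its proton-pumping membrane part. mt-Nd5 (bases 11742 to 13565 of mitochondrial DNA) stood at 291, 284, 294 and 263 CPM in ICAM1high and 166, 163, 206 and 240 CPM in ICAM1low. Every ICAM1high library was above every ICAM1low one, and ICAM1high replicate 1 did not stand out here. The log2 fold change was 0.55 ± 0.16 (adjusted p = 0.019), and 20 of 26 alternatives called it, with adjusted p up to 0.36. The call was lost without ICAM1high replicate 2 (adjusted p = 0.065), ICAM1high replicate 3 (0.070) or ICAM1low replicate 2 (0.060). It was also lost with a replicate block and in replicates 3 and 4 alone. The end of mt-Nd5 overlaps mt-Nd6, which is read from the opposite strand, and whether reads were counted by strand is not known here. mt-Nd6 had 148, 64.9, 56.9 and 57.8 CPM against 30.01, 44.9, 44.7 and 120.2 CPM, a log2 fold change of 0.45 ± 0.45. mt-Nd1 had 670, 370.1, 322 and 316 CPM against 202, 231, 263 and 511 CPM, a log2 fold change of 0.48 ± 0.33. In both genes the highest ICAM1low library, replicate 4, exceeded 3 of the 4 ICAM1high libraries, and neither passed (adjusted p = 0.45 and 0.27).

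mt-Nd2 had 436, 244, 238 and 219.6 CPM in ICAM1high and 156, 179, 227 and 379.8 CPM in ICAM1low, with a log2 fold change of 0.27 ± 0.31. mt-Nd4 had 588, 283, 260.2 and 247 CPM against 205, 279.8, 280.3 and 633 CPM, a log2 fold change of -0.02 ± 0.38. These too were split by ICAM1high replicate 1 and ICAM1low replicate 4 rather than by fraction. mt-Nd3 had 1.77, 0.937, 0.724 and 0.839 CPM against 0.440, 1.101, 0.230 and 2.25 CPM, and mt-Nd4l had 0.370, 0.852, 0.531 and 0.534 CPM against 0.660, 0.245, 1.09 and 0.1248 CPM. Their counts, 4 to 43 and 2 to 20 per library, are among those shared with chromosome 1 copies.

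Complex II, succinate dehydrogenase, belongs to both the chain and the tricarboxylic acid cycle. None of its 4 subunits passed with edgeR, against 42.1% of all tested genes, and none passed with DESeq2 or limma-voom. None had an unadjusted p under the threshold. Sdhb, the iron-sulfur subunit, had 83.8, 52.0, 39.3 and 40.6 CPM in ICAM1high and 26.9, 40.3, 33.1 and 74.8 CPM in ICAM1low, a log2 fold change of 0.30 ± 0.34. Sdhc, a membrane anchor, had 76.2, 51.7, 46.0 and 37.8 CPM against 30.9, 41.6, 44.0 and 54.5 CPM, a log2 fold change of 0.31 ± 0.24. Sdhd, the other anchor, had 78.4, 51.5, 41.2 and 46.4 CPM against 42.0, 61.5, 54.5 and 87.6 CPM, a log2 fold change of -0.17 ± 0.26. The fractions overlapped for all of them. Sdha, the flavoprotein, averaged 97.2 against 91.7 CPM, a log2 fold change of 0.08 ± 0.14.

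Complex III, which moves electrons from ubiquinol to cytochrome c, had the highest median of the complexes, 0.41, and 2 of its 8 nuclear subunits rose. These were 25% of its subunits, near the 22.6% of all tested genes that were higher. Both that rose were core proteins of the matrix side. Uqcrc2 (chromosome 7, 120635176 to 120659524) had 51.7, 49.0, 42.9 and 37.2 CPM in ICAM1high and 20.7, 26.8, 20.1 and 21.97 CPM in ICAM1low. The fractions were well apart, and ICAM1low replicate 4 lay within the range of the other 3. Its log2 fold change was 1.01 ± 0.17 (adjusted p = 0.00092), and it passed in 26 of 26 alternatives, from 0.88 to 1.69. Uqcrc1 (chromosome 9, 108936633 to 108949623) had 109, 74.8, 70.1 and 61.2 CPM against 32.7, 48.9, 41.2 and 51.8 CPM, a log2 fold change of 0.85 ± 0.22 (adjusted p = 0.0096), also without overlap. In replicates 3 and 4 alone it was 0.45 and did not pass (adjusted p = 0.20).

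The smaller subunits of complex III showed no such separation. Uqcrb, which binds ubiquinone, had 15.4, 11.03, 6.81 and 7.70 CPM in ICAM1high and 1.83, 5.93, 4.89 and 9.36 CPM in ICAM1low, a log2 fold change of 0.89 ± 0.43 that did not pass (adjusted p = 0.12). Uqcrfs1, the Rieske iron-sulfur protein that carries the electron transfer, averaged 35.3 against 34.2 CPM (log2 fold change 0.04 ± 0.30). Uqcrq and Uqcrh had -0.32 ± 0.41 and -0.31 ± 0.32. The mitochondrial subunit mt-Cytb, cytochrome b, had 820.3, 507, 468 and 471 CPM against 373, 441, 450.2 and 793 CPM, a log2 fold change of 0.14 ± 0.27 (adjusted p = 0.71).

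Complex IV, cytochrome c oxidase, hands the electrons to oxygen, and its subunits showed the lowest median, 0.10. None of the 14 tested nuclear subunits passed with edgeR, against 42.1% of all tested genes, and none passed with DESeq2 or limma-voom. None with edgeR had an unadjusted p under the threshold. Without ICAM1low replicate 4, 3 passed as higher, and without ICAM1high replicate 1, 1 passed as lower. Cox8a, a small subunit, had 207, 108, 87.8 and 92.7 CPM in ICAM1high and 111, 177, 169.97 and 417 CPM in ICAM1low. ICAM1high replicate 1 lay within the ICAM1low range, and the log2 fold change of -0.82 ± 0.41 did not pass (adjusted p = 0.13). Cox7b, another small subunit, had 48.4, 29.4, 25.1 and 24.5 CPM against 13.5, 26.1, 19.1 and 32.0 CPM, a log2 fold change of 0.49 ± 0.30 (adjusted p = 0.21). Cox7c, also small, had 38.1, 24.1, 20.5 and 15.9 CPM against 11.8, 15.5, 14.8 and 27.3 CPM, a log2 fold change of 0.51 ± 0.32 (adjusted p = 0.22). In both, ICAM1low replicate 4 lay above 3 of the 4 ICAM1high libraries.

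Cox4i1, the ubiquitous form of the largest nuclear subunit, had 221, 137, 114 and 109.7 CPM against 83.1, 134, 124 and 232 CPM, a log2 fold change of 0.02 ± 0.32. Its regulatory partner Cox5a had 43.0, 23.3, 20.9 and 18.2 CPM against 10.3, 22.6, 16.7 and 33.1 CPM, with 0.35 ± 0.37. Cox6a1, Cox6b1, Cox7a2 and Cox7a2l lay between -0.28 and 0.01, and Ndufa4, once assigned to complex I and now to complex IV, at 0.28 ± 0.33. The catalytic subunit mt-Co1 had 3572, 2419.8, 2970.2 and 2622 CPM in ICAM1high and 2042, 2399.97, 2767 and 2741 CPM in ICAM1low. By the counts as deposited it was the most abundant member per kilobase of gene, at 1874 against 1610 CPM per kb. Its log2 fold change of 0.22 ± 0.17 did not pass (adjusted p = 0.33). mt-Co2, the other catalytic subunit, had 38.1, 15.4, 15.8 and 14.4 CPM against 14.4, 17.9, 19.7 and 46.1 CPM, a log2 fold change of -0.23 ± 0.42. mt-Co3, the remaining mitochondrial subunit, had 37.8, 13.7, 14.2 and 11.4 CPM against 7.48, 15.3, 12.9 and 35.5 CPM, a log2 fold change of 0.12 ± 0.50. Both are among the genes with uncertain counts.

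Complex V joins a rotating membrane ring to the catalytic head that makes ATP. Atp5a1, the alpha subunit of that head (chromosome 18, 77773729 to 77782869), was its only called subunit, 6.2% of 16 against 42.1% of all tested genes. It had 291, 273, 232 and 223 CPM in ICAM1high and 118, 155, 135 and 156 CPM in ICAM1low. The fractions were clearly separate, and the log2 fold change was 0.86 ± 0.16 (adjusted p = 0.0017), past the threshold in 25 of 26 alternatives. The exception was replicates 3 and 4 alone, at 0.60 (adjusted p = 0.078). Atp5b, the beta subunit that alternates with it and holds the catalytic sites, had 428, 365, 309.9 and 283 CPM against 218, 311, 274 and 322 CPM, a log2 fold change of 0.30 ± 0.18 that did not pass (adjusted p = 0.21). Partner subunits of 1 hexamer therefore had different results, but the difference between them was not tested.

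The ring subunit c is made from 3 genes with the same mature protein. Atp5g2 had 92.4, 47.7, 38.3 and 34.5 CPM in ICAM1high and 13.7, 26.8, 27.7 and 40.2 CPM in ICAM1low, a log2 fold change of 0.98 ± 0.37, just short of the threshold (adjusted p = 0.054) and past it in 10 of 26 alternatives. Atp5g1, with 23.1, 12.1, 9.41 and 7.24 against 4.84, 13.9, 9.32 and 11.5 CPM, had 0.39 ± 0.40. Atp5g3, with 87.9, 59.2, 40.6 and 37.6 against 20.03, 49.3, 40.8 and 82.0 CPM, had 0.23 ± 0.39. Only Atp5g2 was thus near a call. Atp5k, a membrane subunit, had 9.46, 7.62, 4.63 and 5.34 CPM against 2.35, 2.75, 2.76 and 7.05 CPM, a log2 fold change of 0.86 ± 0.39 (adjusted p = 0.10). mt-Atp6, the mitochondrial proton channel subunit, had 44.7, 14.6, 15.7 and 14.3 CPM against 14.0, 25.4, 25.6 and 53.4 CPM (-0.40 ± 0.46), with counts shared with chromosome 1. The other 10 tested subunits of complex V lay between -0.32 (Atp5l) and 0.43 (Atp5o).

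**Figure D5:**
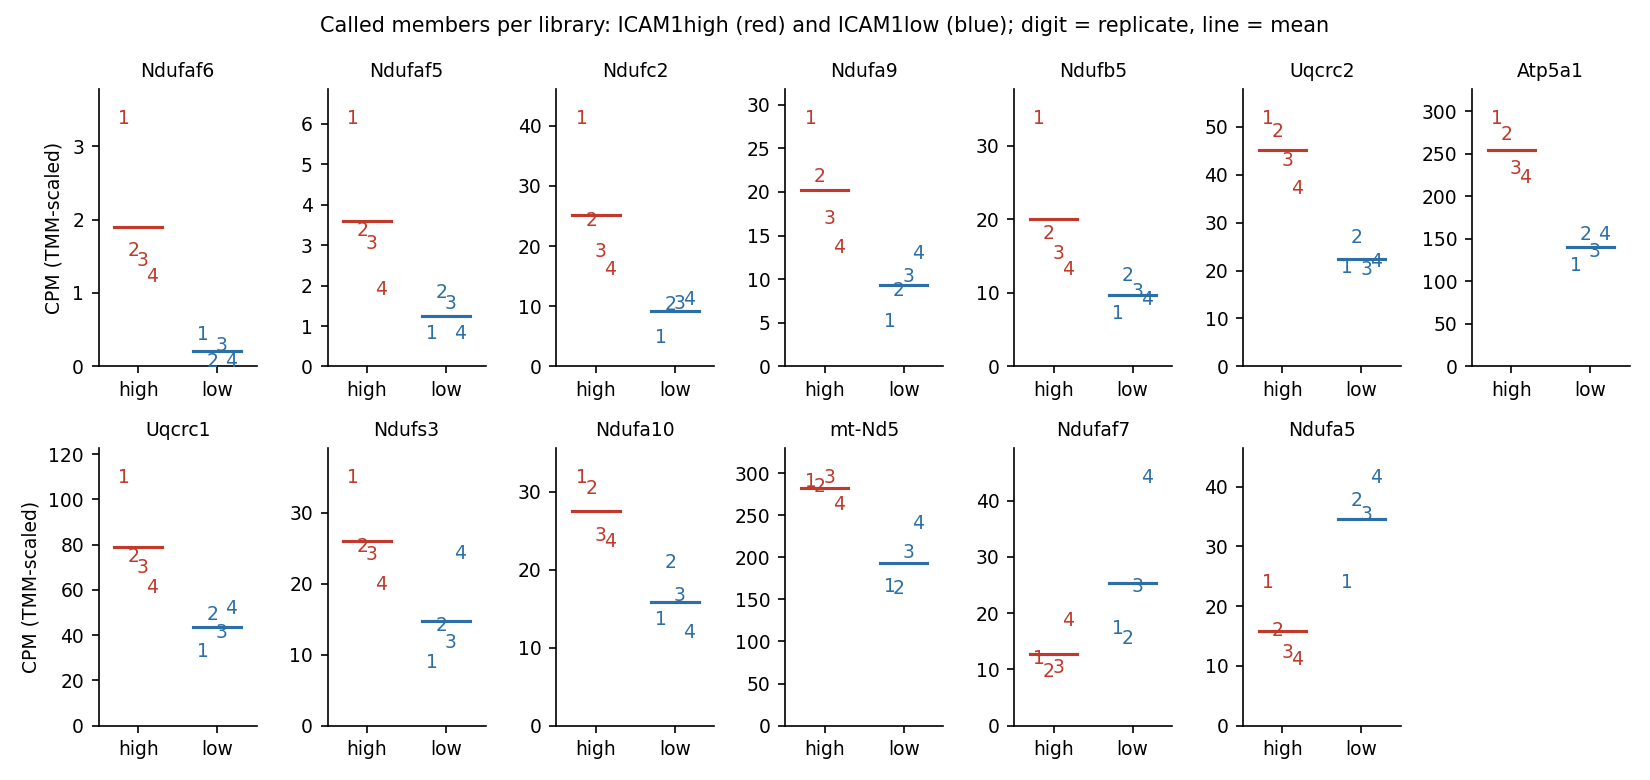
CPM per library of 13 of the 14 genes that passed the test; digits are replicate numbers, ICAM1high in red and ICAM1low in blue, lines are means. Every ICAM1high library lies above every ICAM1low one for Uqcrc2 and Atp5a1, while the fractions overlap for Ndufs3 and Ndufaf7, and meet at replicate 1 for Ndufa5.

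Ratios of paired genes within a library do not depend on scaling, and 11 pairs had counts enough for an exact two-sided permutation test, whose smallest possible p with 4 against 4 is 0.0286. In 3 pairs the fractions did not overlap. The log2 ratio of Atp5g2 to Atp5g1 was 2.06 ± 0.12 in ICAM1high and 1.45 ± 0.36 in ICAM1low (SD, n = 4), a difference of 0.61 (exact p = 0.0286, adjusted 0.105). That of Atp5g3 to Atp5g2 was 0.11 ± 0.16 against 0.75 ± 0.24, a difference of -0.64 (exact p = 0.0286, adjusted 0.105). Atp5g2 thus stood higher against each of the other ring genes in every ICAM1high library than in any ICAM1low one, although neither ratio passed the adjustment over the 11 pairs. For mt-Cytb over Uqcrc1, partners from the 2 genomes in complex III, the log2 ratio was 2.84 ± 0.10 against 3.52 ± 0.32, a difference of -0.68 (exact p = 0.0286, adjusted 0.105).

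In other mitochondrial to nuclear pairs the fractions overlapped. mt-Co1 over Cox4i1 differed by 0.15 and mt-Co1 over Cox5a by -0.18 (exact p = 0.629 and 0.571). mt-Atp6 over Atp5b differed by -0.73 (exact p = 0.171). For tissue forms, Cox7a2 over Cox7a1, the heart and muscle form, differed by -1.29 (exact p = 0.0571, adjusted 0.157), and Cox4i1 over Cox4i2, the form of low-oxygen tissue, by -0.11 (exact p = 0.771). With 5 counts added to each gene in place of 0.5 the first difference was -0.73 (exact p = 0.114) and the second 0.0011. Cox7a1 had 1.23, 0.809, 0.483 and 0.534 CPM in ICAM1high and 0.367, 0.122, 0.173 and 0.936 CPM in ICAM1low. Cox4i2 had 0.782, 0.979, 0.676 and 0.610 CPM against 0.660, 0.734, 0.690 and 0.562 CPM. Both were thus low in every library. Cox7a2 had 81.5, 38.8, 35.7 and 33.7 CPM against 27.1, 40.7, 47.5 and 101.7 CPM. Cox7a2l, a related protein that joins complexes III and IV, had 123.9, 80.9, 73.1 and 71.99 CPM against 46.96, 82.4, 78.8 and 140.1 CPM, and the ratio of Cox7a2 to it differed by -0.20 (exact p = 0.286).

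Among the 8 genes that could not be tested, Cox6a2, the heart and muscle form of Cox6a1, had 30, 15, 15 and 2 counts in ICAM1high and 1, 0, 0 and 0 in ICAM1low. Cox6b2, a testis form, had 8, 9, 6 and 7 counts against 2, 0, 0 and 0. In both genes every ICAM1high library had more counts than any ICAM1low library, at levels too low for a test. Ndufa4l2 had 17, 5, 1 and 1 against 1, 20, 1 and 0 counts, and mt-Atp8 10, 1, 5 and 1 against 0, 5, 4 and 1. Cox7b2, Cox8b, Cox8c and another row named Atp5o had no counts in any library. Single libraries with 1 to 3 counts carry wide counting error, and no fold is given.

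Short promoter sites were searched in the nuclear genes. Windows from 250 bases before to 50 after the start were taken from RefSeq (GRCm38.p6) and matched 76 of 93 nuclear gene symbols. The sites below come from genes that rose (Uqcrc1, Ndufa9, Ndufs3) and from Ndufa5, which fell, with the motif in capitals, 5' to 3' on the strand of the gene. They are at chr9:108936643-108936672 (plus), chr6:126849098-126849127 (minus), chr2:90904731-90904760 (minus) and chr6:24527697-24527726 (minus), in that order.
Uqcrc1: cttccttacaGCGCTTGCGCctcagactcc
Ndufa9: gcattgtgggagAAGATGGcggccgccgtc
Ndufs3: ccccgcgtccgcCCGGAAGaagagtcactg
Ndufa5: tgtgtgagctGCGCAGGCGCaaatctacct
The NRF1 motif (GCGCA, any base, then GCGC, either strand), named for a factor known to bind promoters of respiratory genes, is in capitals in Uqcrc1 and Ndufa5. It was in 18 of 73 windows of nuclear subunits (24.7%), against 9.5% of windows of all tested genes and 4.6% of all windows. The ETS motif bound by GABPA (CCGGAAG, either strand), in capitals in Ndufs3, was in 16 of 73 (21.9%), against 17.1% and 8.9%. The YY1 motif (AAGATGG, either strand), in capitals in Ndufa9, was in 11 of 73 (15.1%), against 7.0% and 6.3%. The NRF1 motif thus stood in the window of a gene that rose and of one that fell. Ndufaf5, which rose, also had it. The windows of Ndufa10, Ndufb5 and Ndufc2, which rose, and of Ndufaf7, which fell, had none of these motifs. Uqcrc2, Atp5a1 and Ndufaf6, which rose, matched no window. The printed sites were picked among called genes with a match. Counted from the annotated start, those in Uqcrc1 and Ndufa9 lie after it, at 6 to 15 and 30 to 36. Those in Ndufs3 and Ndufa5 lie before it, at -27 to -21 and -26 to -17. All are matches of letters and not measured binding.

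The regulators of nuclear respiratory genes, 18 tested, gave 4 higher and 5 lower, so 50% were called against 42.1% of all tested genes, and the log2 fold changes had a median of -0.03. The 4 that rose were Ppargc1b, a coactivator of mitochondrial gene programs, at 3.33 ± 0.68 (adjusted p = 0.0031), Pparg, a nuclear receptor of lipid genes, at 3.32 ± 0.70 (0.0037), Hcfc1, a transcriptional coregulator, at 1.56 ± 0.37 (0.0071), and Pprc1, a coactivator related to Ppargc1b, at 0.93 ± 0.29 (0.027). Ppargc1b and Pparg had 9 and 27 counts over the 4 ICAM1low libraries. Ppard, a nuclear receptor of fatty acid oxidation genes, fell by 1.123 on the log2 scale (87.0 against 189.6 CPM, adjusted p = 0.00017). Tfe3, a lysosomal and energy stress factor, had -0.80 ± 0.15 and Gabpb1, the partner of GABPA, -0.74 ± 0.14, and both passed (adjusted p = 0.0018 and 0.0019). Under library totals Gabpb1 and Tfe3 were at -0.05 and -0.10 and did not pass. Nrf1 and Gabpa, named here because their motifs were searched, had -0.30 ± 0.15 and -0.08 ± 0.17 and did not pass (adjusted p = 0.14 and 0.72).

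Mitochondrial transcription, RNA handling and DNA upkeep rest on nuclear genes. Of 30 tested, 13 rose and 1 fell, so 46.7% were called against 42.1% of all tested genes, with a median of 0.66. Mterf3, a factor of mitochondrial transcription and ribosome assembly, rose from 3.50 ± 0.82 to 9.53 ± 0.86 CPM (SD, n = 4, log2 fold change 1.44, adjusted p = 0.00072). Lrpprc, which stabilises mitochondrial mRNAs, rose by 1.58 (5.43 to 16.3 CPM, adjusted p = 0.0012), and Polrmt, the mitochondrial RNA polymerase, by 1.14 (6.73 to 14.8 CPM, adjusted p = 0.0014). The sole gene that fell was Fastk. Both ribosomal RNAs of mitochondrial DNA fell: mt-Rnr1 had a log2 fold change of -1.66 ± 0.41 and mt-Rnr2 of -1.996 ± 0.42 (adjusted p = 0.0085 and 0.0036). The summed level of both after TMM was 405 to 751 CPM in ICAM1high and 978 to 4231 CPM in ICAM1low, without overlap. As a share of all counts they overlapped, at 0.0521 to 0.0886% in ICAM1high and 0.0795 to 0.298% in ICAM1low. The libraries were made with an mRNA kit, and how much ribosomal RNA it kept was not measured. mt-Rnr1 did not pass in replicates 1 and 2 alone (-0.78, adjusted p = 0.14), mt-Rnr2 passed in all 26 alternatives.

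Of 4 genes of complexes III and IV and cytochrome c outside the naming rule, 1 rose, while 22.6% of all tested genes were higher. It was Cox15, an enzyme of heme a synthesis (0.86 ± 0.19, adjusted p = 0.0050). Cyc1, cytochrome c1, had 0.73 ± 0.28 and did not pass (adjusted p = 0.055). Of 39 other assembly factors 11 rose and 3 fell, so 35.9% were called against 42.1% of all tested genes. Those that fell were Higd1a, a hypoxia-induced factor of the chain, at -2.15 ± 0.47, Pet100, of complex IV assembly, at -1.35 ± 0.34, and Cox17, the copper chaperone of complex IV, at -1.05 ± 0.24 (adjusted p = 0.0047, 0.0096 and 0.0052).

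Genes of neighbouring pathways were counted in the same way. In the tricarboxylic acid cycle and pyruvate entry, 13 of 27 rose and 1 fell, so 51.9% were called against 42.1% of all tested genes, with a median of 0.53. Suclg2, a succinyl-CoA ligase subunit, rose from 1.13 to 7.56 CPM (log2 fold change 2.74 ± 0.33, adjusted p = 0.00015) and Sucla2, another such ligase subunit, from 10.7 to 19.0 CPM (0.82 ± 0.19, adjusted p = 0.0054). In fission, fusion and inner membrane shape, 11 of 29 rose and 1 fell (41.4%), among them Dnm1l, the fission GTPase, at 1.16 ± 0.19, Immt, which organises cristae, at 1.05 ± 0.18, and Opa1, the inner membrane fusion GTPase, at 1.21 ± 0.31. In ubiquinone synthesis, electron entry and ATP exchange, 4 of 29 rose and 4 fell (27.6%). Coq10b, a ubiquinone-binding protein, fell by 1.39 and Slc25a3, the phosphate carrier that feeds ATP synthase, by 0.85 on the log2 scale, while Dhodh, which passes electrons from pyrimidine synthesis to ubiquinone, rose by 1.42 (adjusted p = 0.00053, 0.0011 and 0.0021). The macrophage markers given above moved in the same direction as the genes that rose in these lists, and their part was not tested.

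Levels were compared between genes per kilobase of the deposited gene length. How that length was derived is not given, so the order of genes depends on it and on the length trends above. The mitochondrial genes with uncertain counts keep that limit here, and so do mt-Nd4 and mt-Co1, which share part of their length with a copy. By the mean of the fractions, the highest after mt-Co1 were mt-Cytb at 495 against 450 CPM per kb (ICAM1high against ICAM1low), mt-Nd1 at 438 against 315 and, first among nuclear genes, Cox8a at 227 against 402. In ICAM1high alone mt-Nd2 and mt-Nd4 stood above Cox8a, at 274 and 250.03 CPM per kb, and in ICAM1low alone Cox8a stood above mt-Nd1. Next among nuclear genes came Cox6a1 at 186 against 227 CPM per kb. Small complex IV subunits thus led the nuclear genes in both fractions. Atp5b, at 81.8 against 66.3 CPM per kb, and Atp5a1, at 81.3 against 44.9, were level with each other in ICAM1high only. Apart from the untested genes, the lowest were Atp5s, Ndufaf2, Ndufb2 and Ndufaf6, at 0.46 to 0.86 CPM per kb averaged over the fractions.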

How the data were processed

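Messenger RNA of 8 libraries, 4 ICAM1high and 4 ICAM1low, was sequenced. The authors deposited whole-number read counts per gene, with positions and a gene length in bases, an other quantity used here for length trends and levels per kilobase. HISAT2 and mm10 are named per the submitters' processing notes; no source used here gives the version, counter, annotation, strand setting or filters.

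Genes passing filterByExpr were compared in R 4.3.3 by edgeR 4.0.16 (TMM scaling, quasi-likelihood fit, no pairing), with Benjamini-Hochberg adjustment over the 14051 genes tested and a threshold of 0.05. A standard error is the size of the log2 fold change over the root of its F. Alternatives used DESeq2 1.42.0, limma 3.58.1, other scalings and filters, a length correction (loess, span 0.5), a replicate block and left-out libraries. Ratios used a pseudocount of 0.5 counts. The scripts were tested on simulated data. Libraries of a fraction differed by far more than counting error (chi-square per degree of freedom 12.61 to 221.4), so no library was a duplicate.

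Members, gene lists and tests were chosen with earlier results of these data known. Values in each library were given for all mitochondrial genes, the 3 subunits of each complex with the smallest p, members called against the majority of their complex, and paired genes; of each other list, up to 3 members with the smallest p and an average log2 CPM of at least 1. Other members were named after their values were seen. Some of the genes this rule selects are not reported here, although counts over all genes or members include them.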

Additional observations from a re-analysis of the deposited data

Results flagged for a closer look

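In 16 of 120 groups of 4 values the highest or lowest library lay apart from the other 3 by a gap test that chance passes in about 1 of 20 groups. ICAM1high replicate 1 was the high library in 12 of them. It held mt-Nd1 at 669.7 CPM (next 370.1), mt-Nd2 at 435.8 (next 243.9), mt-Nd4 at 587.7 (next 283.1), mt-Nd6 at 148.2 (next 64.9) and mt-Cytb at 820.3 (next 507.1). The same library held mt-Co2 at 38.1, mt-Co3 at 37.8, mt-Atp6 at 44.7, Ndufaf6 at 3.37, Cox8a at 207.1 and Cox7a2 at 81.5 CPM, and 11640.8 CPM for all members summed (next 7593.8). ICAM1low replicate 4 was the high library for mt-Nd6 at 120.2 CPM (next 44.9), mt-Co2 at 46.1 (next 19.7) and Atp5k at 7.05 (next 2.76). ICAM1low replicate 1 was low for Ndufc2, at 4.77 CPM against 10.2 to 11.05 in the other 3. These groups are not independent, since the genes share libraries.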

How the results depend on the processing

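No called result turned its direction in any alternative. Of the counts of genes called higher or lower, 338 values under the alternatives stayed near the value reported, by a fixed limit on their ratio, and 78 did not. Under library totals, 6818 of all tested genes were higher and 839 lower, with 48 nuclear subunits higher and 0 lower (22 of complex I higher and 0 lower, 3 of II, 5 of III, 6 of IV, 12 of V) and 6 mitochondrial genes higher. The length correction gave 22 nuclear subunits higher (13 of complex I, 4 of III, 2 of IV, 3 of V) and 2 mitochondrial genes. Of all tested genes it gave 3535 higher and 3228 lower. The same correction without both ICAM1high replicate 1 and ICAM1low replicate 4, chosen after seeing the data, gave 24 higher (12 of I, 1 of II, 5 of III, 2 of IV, 4 of V), 3 lower (1 of I, 1 of IV, 1 of V) and 5 mitochondrial genes higher. Of all tested genes 3639 were then higher and 3689 lower. Without both libraries and uncorrected, 3 nuclear subunits were lower (2 of I, 1 of IV), 3 of complex V higher and 3 mitochondrial genes higher. Replicates 1 and 2 alone gave 1708 of all tested genes higher and 1416 lower, 19 nuclear subunits higher and 0 lower (0 of I lower, 4 of III, 2 of IV and 4 of V higher) and 2 mitochondrial genes. Replicates 3 and 4 alone gave 1658 and 1604, 1 nuclear subunit higher (0 of I, 1 of III, 0 of V), 3 lower (2 of I, 1 of IV) and 0 mitochondrial genes. With no filter 1 subunit of complex IV and 2 of complex V were higher, and DESeq2 called 2 of complex V. Of all tested genes, 3162 were higher and 2558 lower with no filter, and 3296 and 3339 with DESeq2.

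Leaving out 1 library at a time gave 2345 to 3403 of all tested genes higher and 2157 to 2927 lower, 7 to 20 nuclear subunits higher and 1 to 3 lower, and 0 to 3 mitochondrial genes higher. By complex it gave 4 to 10 of I higher and 1 to 2 lower, 2 to 4 of III higher, 0 to 3 of IV higher and 0 to 1 lower, and 1 to 3 of V higher. The highest counts of higher genes came without ICAM1low replicate 4 and the highest counts of lower genes without ICAM1high replicate 1.

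Replicates of the fractions share numbers, but nothing says that a number pairs them. After removal of the group means, same-numbered libraries correlated at -0.57, 0.21, 0.18 and -0.30. With a replicate block, 3 nuclear subunits were higher (1 of I, 1 of III, 1 of V) and 0 mitochondrial genes. A replicate block with the length correction gave 4 of III and 3 of V higher and 2 mitochondrial genes. Of all tested genes, the block alone gave 2263 higher and 1975 lower, and the block with the correction 2878 and 2669. For ratios, the exact sign-flip test of 4 same-numbered pairs cannot go below p = 0.125. The chromosome 1 copies and the few counts of Ndufaf6 limit what depth can show.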
